A study of Arabidopsis thaliana with 3 samples.

Results

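GRP3S (AT2G05380), GRP-3 (AT2G05520), GRP9 (AT2G05440) and AT2G05510 are 4 genes of glycine-rich proteins that lie close together on chromosome 2 of Arabidopsis thaliana. They were selected from the 1504 genes that carried binding sites of the RNA-binding protein TSN1, and from their chromosomal neighbours. The site scores of these data were known by then. The first 2 stood out by a summed score that was high for their number of sites. Their site numbers and scores are therefore given as a description, without a test. Of the 4 genes, 2 had binding sites: GRP3S had 5 and GRP-3 had 7, which makes 12 of the 5673 sites in the list. GRP9 and AT2G05510 had none.

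TSN1 (Tudor staphylococcal nuclease 1) combines repeated nuclease-like folds with a Tudor domain and is known as a component of stress granules. The data came from iCLIP2, in which ultraviolet light joins a protein to the RNA it touches and the enzyme that copies the RNA halts where the protein was attached, which places the contact to the nucleotide. There was 1 group of 3 biological replicates, each pooled from 3 plates of 14-day-old seedlings (about 3 g, mostly aerial parts) that carried pTSN1::GFP:TSN1 in Col-0, a background that keeps its own TSN1 gene. All plants grew at 20 C with 16 h of light and 8 h of dark per day, and the zeitgeber time given was 10 h. The fusion was driven by the TSN1 promoter, the plants received 2000 mJ/cm2 at 254 nm, and no control sample was analysed here. Signal from TSN1 and unspecific signal of the bead capture therefore cannot be told apart. The lists pool the replicates, so no value per replicate, read depth or spread between replicates can be given. The level of each messenger RNA was not measured either, so a high score and an abundant RNA cannot be told apart.

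Glycine-rich proteins of this type are small proteins that enter the secretory pathway and reach the cell wall. Most of the mature chain is a repetitive stretch rich in glycine. In Arabidopsis, the GRP-3 protein is known as a ligand of the wall-associated kinase WAK1, a receptor-like kinase whose outer part is bound to pectin, and GRP3S, a shorter relative, is known to bind it too. GRP9 has been described as a partner of a cinnamyl alcohol dehydrogenase, an enzyme of lignin synthesis. These proteins are distinct from GRP7 and GRP8, which combine an RNA-recognition motif with a glycine-rich tail.

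GRP3S carried the highest site score of any messenger RNA from the nucleus. Its 5 sites, each 5 nt wide and on the plus strand, are given here in their order along the gene, in TAIR10 coordinates. The first, labelled coding sequence (CDS) by the authors, lay at 1966894 to 1966898 and scored 294.7. The other 4 were labelled 3' untranslated region (UTR). They lay at 1967855 to 1967859 with a score of 219.3, at 1967907 to 1967911 with 79.1, at 1967980 to 1967984 with 306.4, and at 1967991 to 1967995 with 317.9. Of these 5 values 4 exceeded 200 and only the middle one was below 100. A score is the authors' own value without a stated unit, namely the highest score of a called peak inside the site, and is used here only to rank and describe sites within the list.

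The 7 sites of GRP-3 had lower scores that were closer together. The 4 labelled CDS scored 164.3 (2026249 to 2026253), 149.6 (2026255 to 2026259), 110.5 (2026544 to 2026548) and 125.9 (2026603 to 2026607). The 3 labelled 3' UTR scored 127.7 (2026934 to 2026938), 182.5 (2026977 to 2026981) and 84.0 (2027038 to 2027042). The highest site was 2.17 times the lowest in GRP-3, against 4.02 times in GRP3S. The median site score was 127.7 in GRP-3 (quartiles 118.2 and 157.0) and 294.7 in GRP3S (quartiles 219.3 and 306.4), against 12.2 over the 5208 sites in nuclear protein-coding genes (quartiles 8.09 and 18.2).

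All 12 sites of the pair lay among the 81 highest of those 5208 sites. Within this list the 5 sites of GRP3S ranked 5, 9, 81, 4 and 1 in the order of the gene, and the 7 sites of GRP-3 ranked 17, 23, 40, 32, 30, 13 and 73. Scores above 100 were reached by 10 of the 12, against 0.902% of the whole list, and 10 of the 47 sites in it above that line belonged to these 2 genes. Of the 10 sites above 200, GRP3S held 4. As the pair was chosen by its scores, these shares describe the choice and carry no test.

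**Figure D1:**
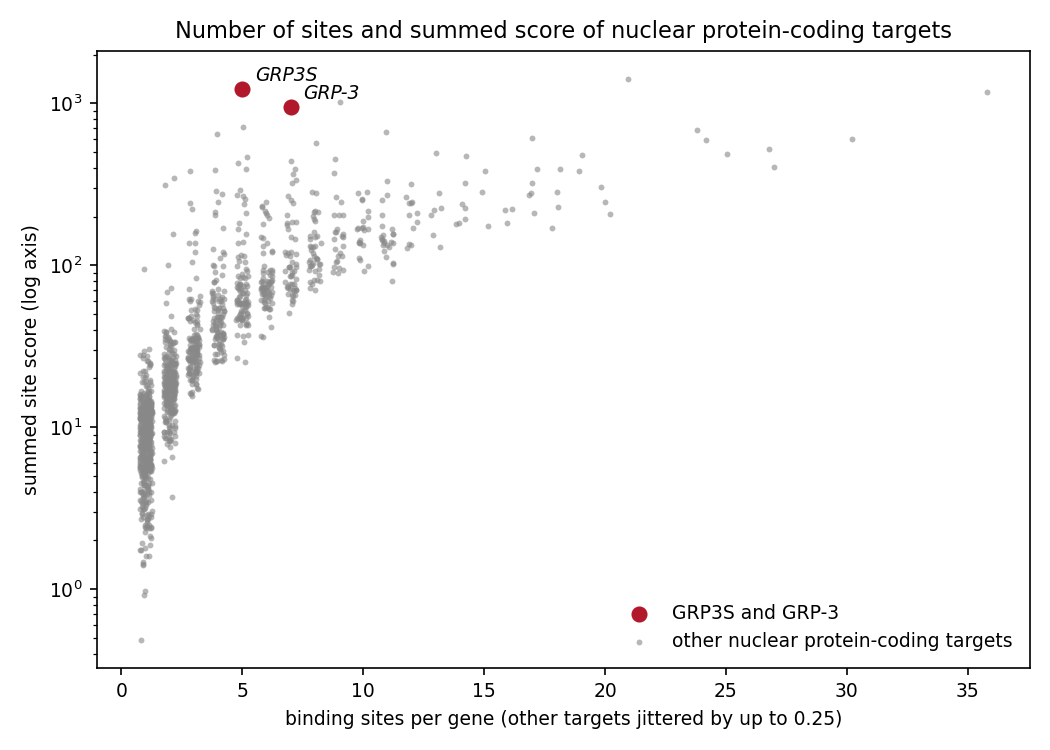
Number of binding sites per gene (horizontal axis) against the summed site score without a stated unit (vertical log axis) for 1383 nuclear protein-coding targets, 1 point per gene. GRP3S, with 5 sites and a sum of 1217, and GRP-3, with 7 sites and a sum of 944, sit above the other genes with 5 to 7 sites, whose highest sum was 709.

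The pair ranked higher by score than by number of sites. Targets had a median of 2 sites. By number of sites, GRP-3 ranked 174 and GRP3S 307 among the 1383 nuclear protein-coding targets, while by summed score they ranked 5 and 2. The sums were 944 for GRP-3 and 1217 for GRP3S, against a median of 73.7 over the 233 targets with 5 to 7 sites, of which the pair is part. The mean score per site was 135 in GRP-3 and 243 in GRP3S, against a median of 12.4 over the 662 targets with at least 3 sites. By the lowest score of any of their sites, the pair ranked 2 (GRP-3) and 3 (GRP3S) among these 662 genes, so even their weakest sites were high for the list.

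GRP3S had most of its score in sites labelled 3' UTR, and GRP-3 had most of it in CDS sites. In GRP3S, 4 of 5 sites and 75.8% of the summed score had the 3' UTR label, and in GRP-3 3 of 7 sites and 41.7%. The nearby glycine-rich gene AT2G05540 lay between them, with 3 of 6 sites and 58.3%. The share of each label over all sites is not given here, so these values describe single genes only. On a scale along the annotated gene that starts with 0 at the 5' end and reaches 1 at the 3' end, the single CDS site of GRP3S lay at 0.187, and the first pair of CDS sites of GRP-3 lay at 0.201 and 0.206. The other CDS sites of GRP-3 lay at 0.430 and 0.475. The sites labelled 3' UTR lay between 0.814 and 0.903 in GRP3S and between 0.731 and 0.812 in GRP-3. Both genes thus had a strong site early in the gene and a group of strong sites near its 3' end, and only GRP-3 had listed sites between them. Whether the labels follow the main isoform was not tested, since exon models were not used here.

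A close pair of sites was found in each gene. The last sites of GRP3S, at 306.4 and 317.9, had centres 11 nt apart, and the first sites of GRP-3, at 164.3 and 149.6, had centres 6 nt apart. Centres within 11 nt of each other made up 11.7% of the 3825 pairs of neighbouring sites within nuclear protein-coding genes, whose median spacing was 160 nt. This limit was taken from the GRP3S pair itself, so the share is a description only. All other neighbouring sites of the 2 genes were at least 43 nt apart. Close spacing is not particular to them: in the nearby glycine-rich gene AT2G05540, neighbours with the same label were 5 to 7 nt apart. The other 3' UTR neighbours of the pair were 43 to 73 nt apart. The longest distances were 961 nt, from the CDS site of GRP3S to its first 3' UTR site, and 331 nt, from the last CDS site of GRP-3 to its first 3' UTR site.

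The called peaks, single crosslinked nucleotides from which the sites were built, gave a finer view of the same genes. GRP-3 had 52 called peaks and GRP3S had 45, numbers close to the median of 50 over the 954 nuclear protein-coding targets with at least 20 called peaks. The peaks themselves were high. The median called-peak score was 41.5 in GRP-3 (quartiles 17.2 and 110.6) and 63.8 in GRP3S (quartiles 22.0 and 120.5), ranks 3 and 1 among those 954 genes, against a median of 3.50 over the genes (quartiles 2.75 and 4.54). Scores above 100 were reached by 15 called peaks of GRP-3 and 12 of GRP3S, together 27 of the 104 such peaks among 68220 in nuclear protein-coding genes (0.152% of that list).

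A cut at the longest stretch without a called peak splits any gene into a 5' group and a 3' group. In both genes the 5' group was the shorter, and in GRP-3 the 3' group included the CDS sites at 110.5 and 125.9. In GRP3S, 13 called peaks lay within 95 nt, from 1966814 to 1966908, then 632 nt held none, and 32 lay within 467 nt, from 1967541 to 1968007. In GRP-3, 11 lay within 60 nt, from 2026233 to 2026292, then 229 nt held none, and 41 lay within 549 nt, from 2026522 to 2027070. The stretch without a called peak thus began at 0.195 of the gene in GRP3S and at 0.233 in GRP-3, and ended at 0.608 and 0.411. It made up 52.9% of the distance from first to last called peak in GRP3S and 27.3% in GRP-3, ranks 122 and 434 among the 954 genes (median 24.7%). In nt, the stretch of GRP-3 (229) was shorter than the median of 340.5 over these genes, and that of GRP3S (632) was longer. Introns, repeated sequence and reads that map to several places were not examined, and their part in these stretches was not tested.

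**Figure D2:**
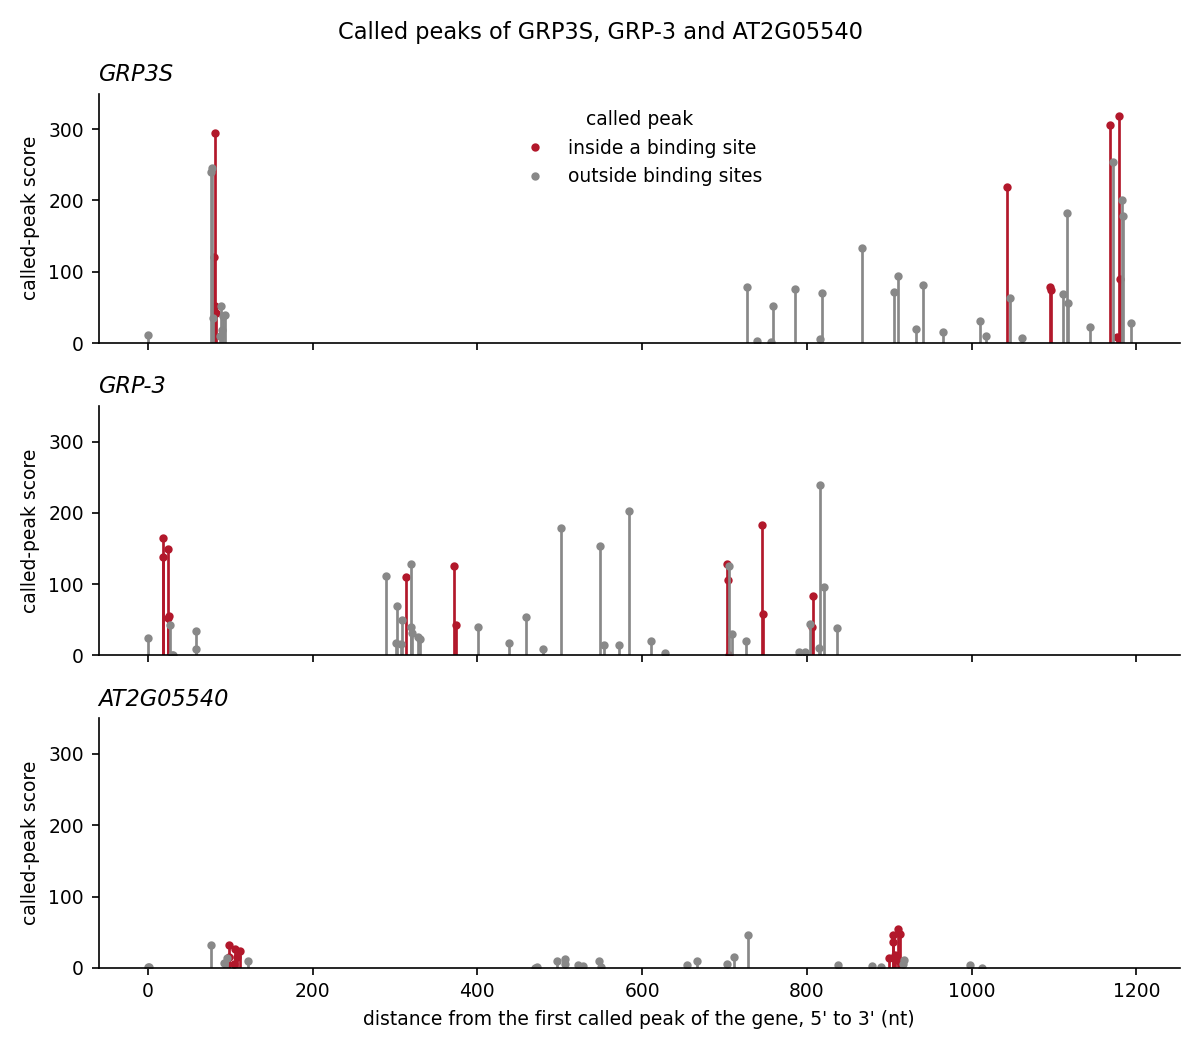
Called-peak score without a stated unit (vertical axis) against the distance in nt from the first called peak of the gene (horizontal axis) for GRP3S, GRP-3 and the nearby gene AT2G05540, 1 line per called peak, red inside a binding site and grey outside. The longest stretch without a called peak is 632, 229 and 347 nt, with fewer called peaks on its 5' side than on its 3' side. The peaks of AT2G05540 stay at or below 54.2.

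The 5' group of GRP3S was narrow and high. Within its CDS site 4 of the 5 positions held a called peak, with scores of 120.5 at 1966894, 52.4 at 1966895, 294.7 at 1966896 and 42.4 at 1966897. Just upstream and outside the site, positions 1966891 and 1966892 scored 240.3 and 245.5. In GRP-3 the 5' group peaked at 164.3 at 2026251, 137.6 at 2026252 and 149.6 at 2026257. The 3' group held 70.8% of the summed called-peak score in GRP3S and 80.2% in GRP-3.

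The 3' group of GRP3S held its highest called peaks towards the downstream end, apart from 219.3 at 1967857. The scores there were 306.4 at 1967982, 254.5 at 1967986, 317.9 at 1967993 and 200.1 at 1967997, with the last called peak at 1968007. In GRP-3 the high peaks of the 3' group were spread out, with 178.6 at 2026734, 154.0 at 2026782, 203.2 at 2026817, 182.5 at 2026979 and 239.4 at 2027049. The first 3 of these lay between the last CDS site and the first 3' UTR site, where no site is listed.

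Part of the called peaks lay inside listed sites. Inside sites lay 15 of 52 called peaks in GRP-3 (28.8%, Wilson 95% interval 18.3 to 42.3) and 11 of 45 in GRP3S (24.4%, 14.2 to 38.7), against a median of 15.8% over the 954 genes (quartiles 10.8 and 20.7). These intervals cover counting error only and treat neighbouring peaks as independent. With called peaks within 5 nt of a site also counted, the shares were 48.1% in GRP-3 and 44.4% in GRP3S, against a median of 21.8% over the same genes. By summed score, 42.5% in GRP-3 and 39.2% in GRP3S lay inside sites, against a median of 26.8% over the 954 genes (quartiles 18.2 and 35.8). In the nearby gene AT2G05540, 32.5% of the called peaks and 61.2% of their summed score lay inside sites, more than in either gene. With called peaks within 5 nt also counted, its share was 42.5%, less than in either gene. Each gene had 7 called peaks above 100 outside any site. The highest called peak of GRP-3, 239.4 at 2027049, lay 7 nt past the edge of the nearest site and was 1.31 times the highest site of the gene, and 203.2 at 2026817 lay 117 nt from a site. In GRP3S the highest called peak was inside a site. A highest called peak outside every site was found in 393 of the 954 genes (41.2%), so GRP-3 shared it with many others. For such genes a ranking by site score leaves out the strongest position.

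Site numbers in the authors' identifiers run upwards along the plus strand, and 2 numbers between the site upstream of GRP3S and the last site of GRP-3 are not in the list. Number 1918 falls where 4 called peaks lay, from 1966814 to 1966893, which include the 245.5 next to the CDS site of GRP3S. Number 1924 falls between the last site of GRP3S and the first of GRP-3, where 4 called peaks lay, the highest being the 200.1 next to the last site of GRP3S. The numbering also skips values within the target genes CAB1 and RD19, so such gaps are not particular to this pair. Why numbers are absent is not given in the sources used here.

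GRP9 and AT2G05510 had no called peak at all, although they lie between GRP3S and GRP-3. None was found within 1000 nt on either side of their annotated ends. Among the 27444 annotated nuclear protein-coding genes, 6.69% had at least 1 called peak and 5.04% at least 1 binding site, so a gene without either is the usual case. As the read depth and the level of these RNAs are unknown here, the zero says only that no position passed the authors' caller.

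**Figure D3:**
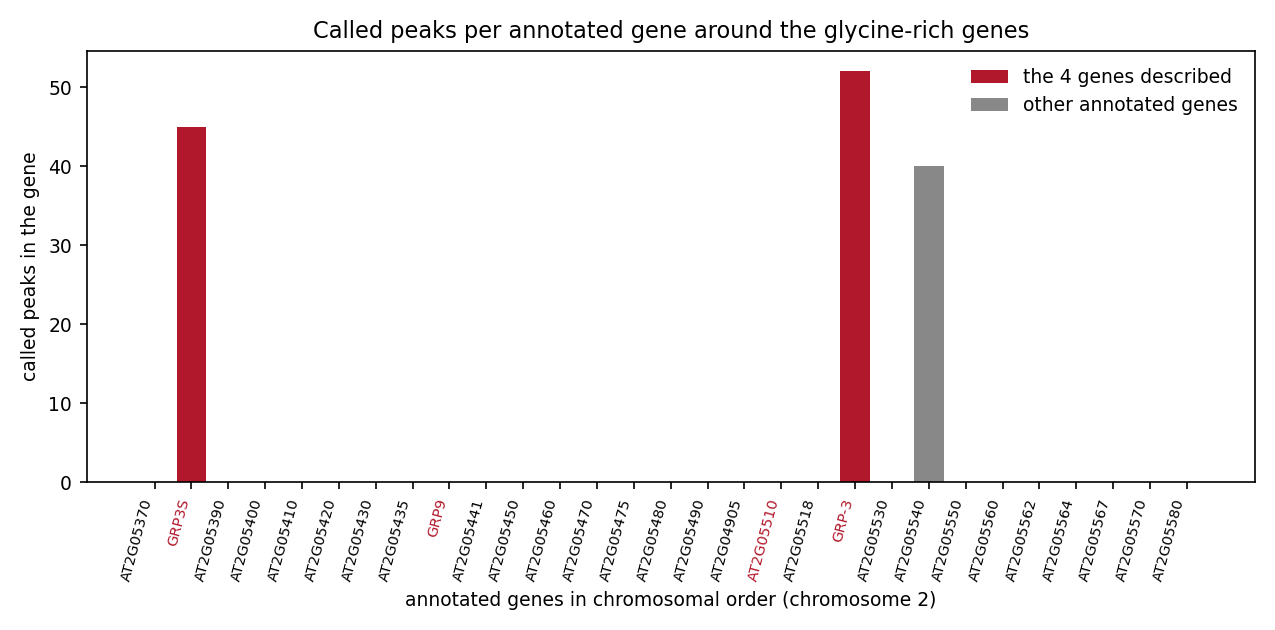
Number of called peaks (vertical axis, from 0) in each of 29 annotated genes of chromosome 2 in chromosomal order, from the gene before GRP3S to AT2G05580. Bars stand at 45 for GRP3S, 52 for GRP-3 and 40 for AT2G05540, and the other 26 genes, GRP9 and AT2G05510 among them, are at 0.

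Called peaks were also counted in the surrounding genes. From AT2G05370, the gene before GRP3S, to the glycine-rich gene AT2G05580 the annotation lists 29 genes, 12 of them protein-coding and most of the others pseudogenes. Called peaks lay in 3 of them, GRP3S, GRP-3 and AT2G05540, all protein-coding. Over all annotated nuclear protein-coding genes the share with a called peak was 6.69%. The region was drawn around GRP3S and GRP-3, which were chosen for their scores. Its counts therefore cannot be judged against that share. The genes directly beside GRP3S and GRP-3 (AT2G05370 and AT2G05390, AT2G05518 and AT2G05530) had none. All 141 called peaks of this region were on the plus strand, and the 4 that lay in none of these genes made up a site upstream of GRP3S. The first site of GRP-3 lay 59355 nt downstream of the first site of GRP3S, and that of AT2G05540 lay 66416 nt downstream.

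AT2G05540, a glycine-rich gene downstream of GRP-3, also had sites with both labels, at lower scores than the pair. It had 6 sites, 3 labelled CDS and 3 labelled 3' UTR. The CDS sites scored 32.0, 26.3 and 23.5 and stood 7 and 6 nt apart, and the 3' UTR sites scored 14.0, 46.0 and 54.2 and stood 5 and 6 nt apart. The lowest scores of GRP3S (79.1) and of GRP-3 (84.0) were thus above its highest. Its 40 called peaks had a median score of 9.50, rank 45 among the 954 genes. The same cut gave a 5' group of 12 and a 3' group of 28, with 347 nt between them that held none. This stretch made up 34.3% of the distance from first to last called peak, rank 321 among the 954 genes (median 24.7%).

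Among all targets the authors describe as glycine-rich, GRP3S and GRP-3 had the highest scores. There were 9 such genes. The pair had 12 sites with a summed score of 2162, against 25 sites and 581 for the other 7, of which no site exceeded 54.2. GRP23 had 6 sites from 15.9 to 51.3, 2 of them labelled intron. AT1G04800 had 5 sites, AT4G21620 had 3, AT4G29020 and AT1G07135 had 2 each and AT1G67870 had 1, and all of these were at or below 25.8.

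**Figure D4:**
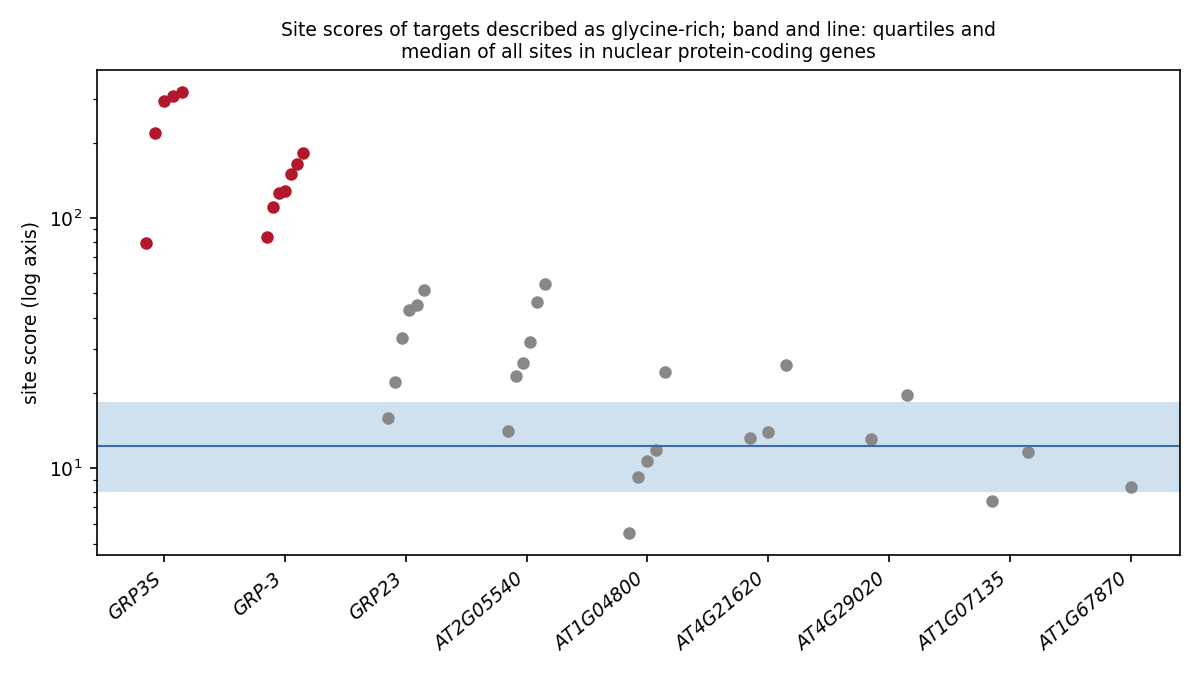
Site score without a stated unit (vertical log axis) for each of the 9 targets described as glycine-rich, 1 point per site, with GRP3S and GRP-3 in red. The lowest point of the pair is 79.1 and the highest of the others 54.2; the band and line mark the quartiles (8.09 and 18.2) and median (12.2) of the 5208 sites in nuclear protein-coding genes.

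Of 12 further genes listed as non-RNA-binding glycine-rich proteins, 2 had called peaks and sites (AT2G05540 and GRP23), against 6.69% of all annotated nuclear protein-coding genes with a called peak and 5.04% with a site. Of 18 other genes with glycine-rich in a reference name, which overlap the lists given here, 5 had called peaks and 3 had sites. The other 10 of the 12 had neither, among them the neighbours AT2G05530 and AT2G05580, GRP5, DOT1 and 6 pollen coat genes (GRP14 and GRP16 to GRP20), which are known from anthers and not from seedling leaves. Among 4 RNA-binding glycine-rich genes, GRP7 had 64 called peaks and 2 sites, with a highest score of 51.6. GRP8 had 9 called peaks and 1 site at 6.35, and the cold shock domain gene CSP2 had 7 called peaks, at most 4.42, and no site. The cold shock domain gene CSP4 had neither.

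Of 8 genes listed under the wall-associated kinase pathway, 3 had called peaks and the same 3 had sites, against 6.69% and 5.04% of all annotated nuclear protein-coding genes. WAK1, the kinase that GRP-3 binds, had 5 called peaks and 1 site of score 6.23, labelled 3' UTR. The related kinase genes WAK2, WAK3, WAK4 and WAK5 had none, nor had KAPP, a protein phosphatase that is known to join the WAK1 complex. The other listed genes with sites, PSBQ-1 and PSBQ-2, encode PsbQ, an extrinsic photosystem II subunit. Their place in this pathway was not tested, so the count of the list says little about the pathway. PSBQ-1, listed as PSBQA, had 50 called peaks and 4 sites from 11.5 to 44.6, and PSBQ-2 had 70 called peaks and 6 sites from 9.58 to 26.5. GRP-3 had fewer called peaks than PSBQ-2 and a lowest site, 84.0, above the highest of either PSBQ gene.

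The 3 targets most like each gene of the pair in number of sites and summed score were taken. Likeness was the difference in log2 summed score among nuclear protein-coding targets whose number of sites differed by at most 2. GRP-3 was the nearest to GRP3S (0.37), followed by CAB1 (0.78), a light-harvesting chlorophyll protein gene with near-identical copies and 5 sites, and AT2G45180 (0.91), a gene of the lipid-transfer superfamily with 4. The nearest to GRP-3 was the cysteine protease gene RD19 (0.11) with 9 sites, then GRP3S (0.37) and CAB1 (0.41). The 306.4 and 317.9 of GRP3S near its 3' end were close to 307.8 and 316.5 in CAB1, whose other 3 sites were between 26.1 and 30.7. By mean score per site among genes with at least 3 sites the order was GRP3S, AT2G45180 (161), CAB1 (142), GRP-3 and the lipid transfer protein gene LTP5 (128). Without replicate values it cannot be said which neighbours in this order differ.

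GRP3S and GRP-3 encode related proteins, and 50-nt reads from stretches that the 2 messenger RNAs share could be placed on either gene. How reads with several matches were treated is not given in the sources used here, so the split of signal between the genes of this family is uncertain.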

How the data were processed

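Called peaks, binding sites and target genes are lists of the whole series, without columns for single replicates. The genome build was TAIR10, and the tools listed were STAR 2.7.3a, UMI-tools 1.0, bedtools 2.27.1, SAMtools and FastQC 0.11.5, per the submitters' processing notes, which give no roles. The deposited score of a site is the highest score of a called peak inside it, per the file headers, and the deposited number of binding sites is a count per gene. It equalled the listed sites in all 1504 targets. Scores reach 708 and have no unit.

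Here, isoform suffixes were removed from gene identifiers. Called peaks were given to a gene when they lay in exactly 1 nuclear protein-coding span of TAIR10.1 (none of its coordinates is printed). For genes with sites they also had to lie on the strand of those sites. For genes without a site either strand counted, also in the 6.69% of genes with a called peak. A called peak counted as inside a site when it lay within its 5 nt. Wilson 95% intervals used SciPy 1.17.1. No test was run, because there is 1 group and no value per replicate. The overlap code was tried on toy data. The genes and lists were chosen with earlier results of these data known. Besides the 4 genes, genes were named when a list gene had a called peak or site, as the 3 nearest targets, as the 5 highest mean scores or as direct neighbours. GRP5, DOT1, AT2G05580 and the genes at 0 were named to account for the lists. Alternatives changed score minimum, gene score, genes ranked, peak assignment, overlap and frame. A planned comparison of the encoded proteins was not run, as no sequence was used here.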

Additional observations from a re-analysis of the deposited data

Results flagged for a closer look

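A site that the authors assigned to no gene lay upstream of GRP3S on the same strand, at 1966263 to 1966267 of chromosome 2. It belongs to none of the genes compared and held 4 called peaks, with scores from 16.3 to 38.4. It ended 627 nt before the first site of GRP3S and 547 nt before the first called peak in the gene, and no annotated gene of any type covers it. Its score of 38.4 ranked 47 among the 212 sites outside genes, whose median was 17.5. Whether it belongs to a longer form of the GRP3S messenger RNA was not tested.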

How the results depend on the processing

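Filters on site score at the median or the upper quartile could not change the numbers of sites, since the genes were chosen for high scores and GRP9 and AT2G05510 had none. Called peaks of GRP3S and GRP-3 stayed within 1.5 times when strand was ignored, when low peaks were left out, from first to last site only (38 in GRP3S, 47 in GRP-3) and with spans widened by 1000 nt (49 and 52), the last chosen after seeing the data. GRP3S moved from rank 2 by summed score to rank 1 by highest or mean site score, also among genes with at least 3 sites (chosen after seeing the data), and to rank 4 when non-coding and organelle genes were ranked too. GRP-3, at rank 5, was then at ranks 7, 6, 4 and 7. With called peaks within 5 nt of a site counted, the share inside sites was 44.4% in GRP3S and 48.1% in GRP-3, against 24.4% and 28.8%. With the first to last called peak as frame, the median position of CDS sites was 0.0687 in GRP3S and 0.201 in GRP-3, and that of 3' UTR sites 0.948 and 0.891; the frame itself is shorter than the gene. Leaving out replicates was not possible with pooled lists. Read depth is unknown here, so a gene at 0 is not shown to lack binding.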
